A study of Mus musculus with 48 samples.

Results

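The genes described are the solute carriers of the mouse kidney outside the Slc22 and Slc34 families. They are the named genes whose symbol starts with Slc, which takes in the Slco genes, without Slc22, Slc34, Slc17a3, Slc4a1 and Slc25a25. By this rule 164 of 7859 named genes were members, measured by 212 of 10198 named probe sets. Of the 164, 126 passed a filter on low values (6 or more arrays with a log2 intensity over 3.47, the median of the table) and were tested among 5748 genes, and 38 did not pass.

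The values come from the kidneys of 48 female BALB/c mice that received vancomycin, a glycopeptide antibiotic known to injure the kidney, or saline. Each mouse had 7 daily injections, was killed on day 8 and was measured on its own single-colour Affymetrix array. Vancomycin at 50, 200 or 400 mg/kg per day was given intraperitoneally (ip) to 3 groups and intravenously (iv) to 3 more. Each route had a group given 0.9% saline, which made 8 groups of 6 mice, all of 1 strain and 1 sex, with no genetic change named. A dose is always compared with the saline group of its own route. All levels are log2 intensity, and each change is a log2 fold change with its standard error from a limma fit of all 8 groups, with p adjusted over the 5748 genes by Benjamini-Hochberg and a threshold of 0.05.

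Solute carriers are membrane proteins that move small molecules. Many, though not all, work by exchange or by riding on ion gradients, above all the sodium gradient that the sodium pump keeps up. In the proximal tubule, carriers of the brush border and of the basolateral side together take filtered amino acids, sugars, carboxylates and vitamins back from the urine. Carriers of the thick ascending limb and distal tubule reabsorb salt, and others stand in mitochondria, lysosomes and the secretory pathway of every cell.

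Names rest on a reconstruction, since the values in the table do not follow the order of the identifiers beside them, and what is said of a gene by name stands or falls with it. The levels gave a check of it, though not an independent one. The carrier lists used for it were written by hand with earlier results of these data known. All 21 named carriers known from the kidney tubule, of 44 listed, had a mean above that median (from 4.69 to 13.05) and all passed the filter. Of 14 named carriers known from brain and sense organs only Slc6a4 and Slc18a1 passed, and the median level of the 14 was 2.32. Over 59 pairs of probe sets of the same member the levels correlated at 0.27 under the names used, against 0.0192 over 557 pairs under the identifiers as listed. For all named genes the correlation was higher, at 0.494 over 2927 pairs under the names used. The array values differed between the routes: the 90th percentile lay between 9.07 and 9.23 in ip arrays and between 8.28 and 8.75 in iv arrays. The iv saline kidney of mouse 1 stood apart, with the lowest array weight of all (0.144).

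At 400 mg/kg most of the carriers that passed the test were lower than in saline, by both routes. Of the 126 tested members, 28 were higher and 62 lower at ip 400 mg/kg, against 36.3% and 25.1% of all 5748 genes tested (61.3% in all). At iv 400 mg/kg 21 were higher and 53 lower, against 30.7% and 19% of all genes (49.7% in all). As shares of the tested members these were 22.2% higher and 49.2% lower by ip, and 16.7% higher and 42.1% lower by iv. The median change over the tested members was -0.30 by ip and -0.25 by iv, beside 0.11 and 0.09 over all genes tested. Centring each array on its median brought the median of all genes at ip 400 mg/kg to 0.01, and the members' median to -0.39. Without the iv saline kidney of mouse 1 the iv counts were 18 higher and 60 lower.

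Large falls outnumbered large rises. More than 2-fold lower were 32 members at ip 400 mg/kg and 24 at iv 400 mg/kg, and more than 2-fold higher were 15 by ip and 8 by iv. Over all genes tested, 8.39% were called and more than 2-fold lower by ip and 5.57% by iv, and 15.1% and 9.99% higher. In 47 members every ip 400 mg/kg kidney lay below every ip saline kidney (37.3% of those tested, against 17.2% of all genes), and in 17 every one lay above (13.5% against 24.1%). By iv these numbers were 24 below (19% against 6.87%) and 10 above (7.94% against 15.1%). Both routes called 50 members lower and 18 higher, where 16.3% and 26.6% of all genes were so called, and 31 members passed by neither route. Only Slc25a37 was called in opposite directions, as were 0.209% of all genes.

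**Figure D1:**
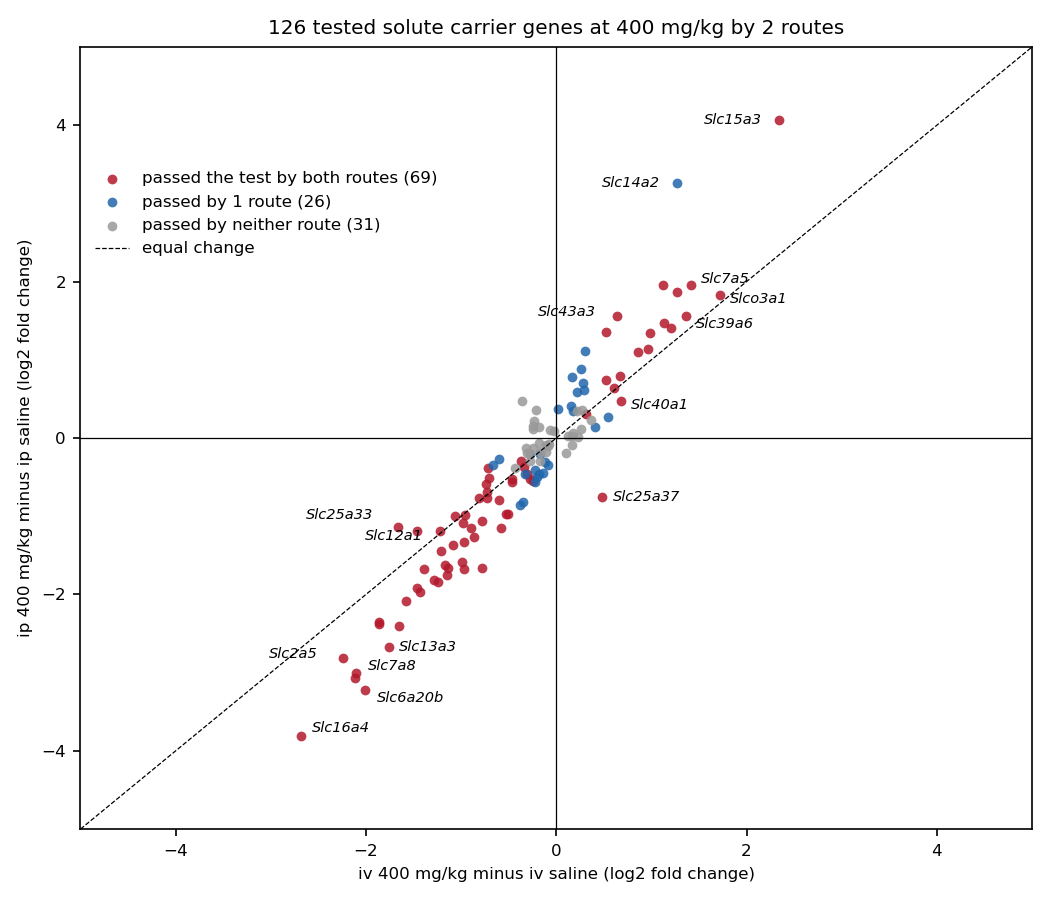
Log2 fold change of each of the 126 tested carriers at ip 400 mg/kg (vertical axis) against that at iv 400 mg/kg (horizontal axis), each against the saline group of its route (n = 6 per group), coloured by the routes that passed the test. Most points lie in the lower left, where both routes were lower, with Slc16a4 lowest, and Slc15a3 is highest by both.

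These are levels in bulk tissue, where fewer cells of a type and less RNA per cell cannot be told apart. Markers of some other cells shifted at 400 mg/kg and in part at iv 200 mg/kg. At iv 200 mg/kg limma called 9 of 12 myeloid and 3 of 6 fibroblast and matrix markers higher (6.07% of all genes). At iv 50, ip 50 and ip 200 mg/kg it called 0 of either list. The summed level of 12 named myeloid markers (of 18 listed) lay between 13.46 and 14.65 at ip 400 mg/kg, against 9.40 to 10.33 in ip saline, and between 11.81 and 13.59 at iv 400 mg/kg, against 9.36 to 9.59 in iv saline. The fibroblast and matrix markers (6 of 9 named) summed to between 13.18 and 14.22 at ip 400 mg/kg, against 10.79 to 11.45 in ip saline, and to between 12.43 and 13.60 at iv 400 mg/kg, against 10.34 to 10.86 in iv saline. Both sums were higher without overlap, while the 13 named kidney tubule markers (of 16, with Slc12a1 and Slc12a3 among them) summed to between 14.66 and 15.61 at ip 400 mg/kg, against 16.54 to 16.66 in ip saline. By iv the tubule sum was 14.20 to 15.69 at 400 mg/kg, against 15.96 to 16.43 in saline. The endothelial sum overlapped between 400 mg/kg and saline by both routes (11.34 to 11.63 against 11.41 to 11.77 by ip, and 10.85 to 11.34 against 10.79 to 11.52 by iv). Of the lymphocyte markers 6 of 11 were named, and their sums overlapped (5.45 to 6.04 at ip 400 mg/kg, against 5.41 to 5.70 in ip saline, and 5.45 to 5.69 at iv 400 mg/kg, against 5.46 to 5.63 in iv saline). Cd3e, Cd3d, Cd79a and Ms4a1 had means under 3.47 in every group, and Cd79b passed 3.47 only at ip 400 mg/kg (3.48, against 2.56 in ip saline). Cd8a was above 3.47 in all 8 groups and was lower at ip 400 mg/kg (4.13, against 4.52 in ip saline, adjusted p = 0.0014 by limma). The part of these shifts in the carriers' changes was not tested.

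The amino acid and peptide carriers of the proximal tubule fell together. Of 12 members, all of them tested, 10 were lower by both routes and 1, the taurine carrier Slc6a6, was higher by ip only. Their median change was -1.50 by ip and -1.11 by iv. By each route 83.3% were lower, against 25.1% of all genes by ip and 19% by iv. Slc7a8 encodes LAT2, a basolateral exchanger of neutral amino acids. Its lowest, median and highest levels were 5.64, 6.20 and 6.92 at ip 400 mg/kg, against 8.44, 9.44 and 9.58 in ip saline. By iv they were 6.03, 6.35 and 7.53 at iv 400 mg/kg, against 8.44, 8.59 and 8.86 in iv saline. No treated kidney reached the saline range by either route, and the changes were -3.07 ± 0.20 (adjusted p = 8.6e-17, limma) and -2.11 ± 0.20 (adjusted p = 1.1e-11, limma), or 8.38-fold and 4.33-fold lower.

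Slc6a20b belongs to the imino acid carrier branch of the sodium-coupled Slc6 family. Its levels were 6.96, 7.92 and 9.39 at ip 400 mg/kg, against 11.10, 11.20 and 11.36 in ip saline, as lowest, median and highest. By iv they were 7.54, 8.76 and 10.25 at iv 400 mg/kg, against 10.08, 10.76 and 11.04 in iv saline. The ip groups were far apart and the iv groups met at 1 kidney, with changes of -3.22 ± 0.30 (adjusted p = 1.7e-12, limma) and -2.01 ± 0.30 (adjusted p = 3.5e-07, limma). Its close relative Slc6a20a, the imino acid carrier of the brush border, did not pass by either route, at 0.36 by ip (adjusted p = 0.14) and -0.22 by iv (adjusted p = 0.41). The levels of Slc6a20a were 8.86, 9.40 and 9.52 at ip 400 mg/kg, against 8.60, 8.91 and 9.32 in ip saline, so that the groups overlapped.

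The glutamine carrier Slc38a3 ranged over 5.60, 6.84 and 7.88 at ip 400 mg/kg, against 8.33, 8.73 and 9.20 in ip saline (lowest, median and highest), a change of -1.97 ± 0.26. By iv it had 6.81, 7.33 and 8.56 at iv 400 mg/kg, against 8.42, 8.91 and 9.22 in iv saline, a change of -1.43 ± 0.26. It was lower in both comparisons (adjusted p = 1.1e-08 and 1.1e-05), with no overlap by ip and an overlap by iv. Slc16a10, the aromatic amino acid carrier TAT1, had 5.82, 6.39 and 6.74 at ip 400 mg/kg, against 7.94, 8.29 and 8.52 in ip saline. By iv Slc16a10 had 5.05, 6.12 and 6.51 at iv 400 mg/kg, against 7.06, 7.38 and 7.63 in iv saline, and every treated kidney lay below every saline kidney by both routes (-1.92 ± 0.19 and -1.46 ± 0.19). The neutral amino acid uniporter Slc43a2 changed by -1.18 ± 0.17 (adjusted p = 5.5e-08) by ip, where its levels were 5.84, 6.38 and 6.64 at ip 400 mg/kg, against 7.17, 7.53 and 7.66 in ip saline. Slc43a2 had 5.06, 5.71 and 6.09 at iv 400 mg/kg, against 6.68, 7.21 and 7.29 in iv saline, a change of -1.47 ± 0.17 (adjusted p = 8.7e-10).

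Slc7a7 exports cationic amino acids at the basolateral side, and it was lower by both routes (-1.83 by ip and -1.25 by iv). Slc3a2, the heavy chain that Slc7a7, Slc7a8 and Slc7a5 need to reach the membrane, was lower too, at -1.06 (adjusted p = 4e-07) and -0.78 (adjusted p = 0.00011), and is named here after its values were seen. The levels of Slc3a2 were 9.81, 10.03 and 10.32 at ip 400 mg/kg, against 10.80, 11.19 and 11.26 in ip saline, and its iv groups overlapped. Slc3a2 is not counted in this class but among the amino acid carriers that many cell types use, where its change was the lowest by both routes. Other falls were in the GABA and taurine carrier Slc6a13 (-1.67 by ip, -0.97 by iv), the peptide carrier Slc15a2 (-1.33 and -0.97) and the glutamate carrier Slc1a1 (-1.16 and -0.90).

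The amino acid carriers that many cell types use held both rises and falls. Of 16 members 11 were tested, with a median change of 0.59 by ip and 0.28 by iv. By ip 6 were higher and 3 lower (54.5% and 27.3%, against 36.3% and 25.1% of all genes). By iv 5 were higher and 3 lower (45.5% and 27.3%, against 30.7% and 19% of all genes). Slc15a3, a lysosomal peptide and histidine carrier known from macrophages, had the largest rise of all tested members by both routes. Its levels were 5.41, 6.32 and 7.27 at ip 400 mg/kg, against 2.21, 2.24 and 2.26 in ip saline. By iv they were 3.55, 5.62 and 6.35 at iv 400 mg/kg, against 2.92, 2.95 and 3.02 in iv saline. No groups overlapped, and the changes were 4.07 ± 0.30 (adjusted p = 9.9e-16, limma) and 2.34 ± 0.30 (adjusted p = 8.8e-09, limma). Both saline groups lay under 3.47, where signal and background cannot be told apart, so these sizes are approximate, and Slc15a3 passed the filter only through the 400 mg/kg arrays.

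Slc38a2, the sodium-coupled neutral amino acid carrier SNAT2, was higher in every treated kidney than in any saline kidney. Its levels were 11.43, 11.73 and 12.48 at ip 400 mg/kg, against 9.81, 9.84 and 10.54 in ip saline. By iv Slc38a2 had 10.65, 10.83 and 11.61 at iv 400 mg/kg, against 8.97, 9.71 and 10.22 in iv saline. The changes of Slc38a2 were 1.87 ± 0.21 (adjusted p = 1.4e-10) and 1.27 ± 0.21 (adjusted p = 1.8e-06). Slc7a5, the exchanger LAT1 of dividing and activated cells, had 3.56, 4.38 and 4.98 at ip 400 mg/kg, against 2.30, 2.40 and 2.44 in ip saline. By iv Slc7a5 had 3.11, 4.26 and 4.83 at iv 400 mg/kg, against 2.67, 2.79 and 2.98 in iv saline. Its groups stood apart by both routes, with changes of 1.96 ± 0.25 and 1.42 ± 0.25, but both saline groups again lay under 3.47. Slc7a5, like Slc15a3, passed the filter only through the 400 mg/kg arrays. Both could thus enter the test only by being high there, and both are counted in the higher shares of this class. Slc43a3, a nucleobase carrier placed here by its family, rose by 1.55 by ip (adjusted p = 2.4e-09) and 0.64 by iv (adjusted p = 0.0054). The lysosomal exporter of cationic amino acids Slc66a1 fell by both routes (-0.51 and -0.71), as did Slc3a2, described above.

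Genes of the amino acid response, a program that raises amino acid uptake and synthesis when amino acids are short, were mixed. Of 12 listed 6 were tested, and 1 was higher and 2 lower by each route (16.7% and 33.3%). Of all genes 36.3% were higher and 25.1% lower by ip, and 30.7% and 19% by iv. Asparagine synthetase, Asns, rose by 3.19 by ip (adjusted p = 3.4e-13) and 2.67 by iv (adjusted p = 1.3e-10), while the serine pathway genes Shmt2 (-2.26 and -1.45) and Phgdh (-0.85 and -0.41) were lower. Ddit3, Sesn2 and Aars did not pass by either route.

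Among the carriers of sugars and polyols 5 fell and 1 rose by each route, of 10 tested and 14 named. That was 50% lower and 10% higher. Of all genes 25.1% were lower and 36.3% higher by ip, and 19% and 30.7% by iv. Slc2a5, the fructose carrier GLUT5, had 4.87, 6.92 and 7.34 at ip 400 mg/kg, against 9.00, 9.35 and 9.73 in ip saline. By iv Slc2a5 had 5.42, 6.94 and 8.00 at iv 400 mg/kg, against 8.71, 9.03 and 9.38 in iv saline. The 400 mg/kg kidneys of both routes all lay below their saline groups, with changes of -2.81 ± 0.31 (adjusted p = 1.1e-10) and -2.24 ± 0.31 (adjusted p = 6.2e-08). Slc5a9, a sodium-coupled carrier of mannose and fructose, had 2.53, 3.63 and 5.09 at ip 400 mg/kg, against 6.39, 6.78 and 7.10 in ip saline. By iv Slc5a9 had 3.27, 3.76 and 4.92 at iv 400 mg/kg, against 5.66, 5.96 and 6.21 in iv saline, and several treated kidneys were near or under the background level. Its changes were -3.00 ± 0.29 and -2.10 ± 0.29. Slc37a4, which carries glucose 6-phosphate into the endoplasmic reticulum for release of glucose, had 8.83, 9.37 and 10.33 at ip 400 mg/kg, against 11.31, 11.56 and 11.83 in ip saline. By iv Slc37a4 had 9.02, 10.12 and 10.98 at iv 400 mg/kg, against 11.00, 11.61 and 11.93 in iv saline. It fell without overlap by both routes, by 4.24-fold and 2.99-fold. Its relative Slc37a1 was the 1 that rose (1.36 ± 0.22 by ip, 0.52 ± 0.22 by iv, adjusted p = 5.4e-07 and 0.043), from saline means under 3.47 and with overlapping groups. Slc37a1 passed the filter only through the 400 mg/kg arrays, so it could enter the test only by being high there. The 10% higher of this class rests on it alone.

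Carboxylate and sulfate carriers, with the acetyl-CoA carrier Slc33a1, had 7 lower and 0 higher of 9 tested by each route, by limma with adjusted p. That was 77.8% lower, against 25.1% of all genes by ip and 19% by iv. The class median was -0.69 by ip and -0.73 by iv. At an unadjusted p under 0.05 there were 7 by ip and 8 by iv. Slc16a4, an orphan of the monocarboxylate carrier family, had the largest fall of all tested members by both routes. Its levels were 4.84, 6.05 and 7.22 at ip 400 mg/kg, against 9.71, 9.77 and 10.03 in ip saline. By iv Slc16a4 had 4.34, 6.55 and 8.15 at iv 400 mg/kg, against 8.14, 9.07 and 9.58 in iv saline. The ip groups were more than 2 log2 units apart at their nearest, the iv groups touched, and the changes were -3.81 ± 0.39 (adjusted p = 1.6e-11) and -2.68 ± 0.39 (adjusted p = 1.7e-07), or 14.1-fold and 6.41-fold.

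The sodium-dicarboxylate carriers take up citrate and other intermediates of the citric acid cycle, Slc13a2 at the brush border and Slc13a3 at the basolateral side. Slc13a3 had 8.04, 9.14 and 10.01 at ip 400 mg/kg, against 11.61, 11.85 and 12.00 in ip saline. By iv Slc13a3 had 8.80, 9.71 and 10.35 at iv 400 mg/kg, against 11.02, 11.42 and 11.77 in iv saline. No groups overlapped, and the changes of Slc13a3 were -2.67 ± 0.24 and -1.76 ± 0.24. Slc13a2 had 6.30, 7.40 and 8.25 at ip 400 mg/kg, against 9.55, 9.74 and 10.12 in ip saline. By iv Slc13a2 had 6.98, 7.89 and 8.55 at iv 400 mg/kg, against 8.84, 9.81 and 10.13 in iv saline. It was lower without overlap as well, with changes of -2.36 ± 0.25 and -1.86 ± 0.25 (adjusted p = 6.4e-11 and 4.4e-08). Slc5a8, which takes up lactate and other monocarboxylates with sodium, fell by 2.13-fold by ip and 1.97-fold by iv, and no groups overlapped. Slc33a1, which brings acetyl-CoA into the endoplasmic reticulum, was lower (-0.69 by ip and -0.73 by iv).

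Since so many members moved together, their promoter windows were searched for short motifs of factors known from tubule cells or from inflammation. RefSeq (GRCm38.p6) gave windows of 250 bases before to 50 after the start site for 126 of the 164 members, 161 windows in all. Of the 50 members lower by both routes, 42 had a window (56 windows). The NF-kB motif, read on both strands as were all motifs, was in 3 of these 56 (5.36%), against 1.47% of all 32851 windows, and in 0 of 11 windows of members higher by both routes. It was in Slc37a4, Slc5a8 and Slc6a13, all described above as lower at 400 mg/kg, and these windows, chosen after the matches were seen, are shown because they hold the only NF-kB matches among members, with the match in capitals. The windows lie on the plus strand, at chr9:44396696-44396995 for Slc37a4 (match at -192 to -183 from the start site), chr10:88885742-88886041 for Slc5a8 (-37 to -28) and chr6:121303389-121303688 for Slc6a13 (-77 to -68).
Slc37a4: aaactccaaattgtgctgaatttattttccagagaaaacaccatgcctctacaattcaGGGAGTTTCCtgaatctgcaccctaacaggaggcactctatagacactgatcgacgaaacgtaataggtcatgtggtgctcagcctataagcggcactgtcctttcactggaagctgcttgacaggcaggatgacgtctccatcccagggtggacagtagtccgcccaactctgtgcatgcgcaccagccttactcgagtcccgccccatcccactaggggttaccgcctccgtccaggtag
Slc5a8: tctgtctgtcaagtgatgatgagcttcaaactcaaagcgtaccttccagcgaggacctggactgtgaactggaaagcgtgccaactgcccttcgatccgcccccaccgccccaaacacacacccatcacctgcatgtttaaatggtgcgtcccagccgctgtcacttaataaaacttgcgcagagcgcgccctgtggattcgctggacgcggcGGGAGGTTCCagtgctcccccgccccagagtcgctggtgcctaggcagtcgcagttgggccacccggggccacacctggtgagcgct
Slc6a13: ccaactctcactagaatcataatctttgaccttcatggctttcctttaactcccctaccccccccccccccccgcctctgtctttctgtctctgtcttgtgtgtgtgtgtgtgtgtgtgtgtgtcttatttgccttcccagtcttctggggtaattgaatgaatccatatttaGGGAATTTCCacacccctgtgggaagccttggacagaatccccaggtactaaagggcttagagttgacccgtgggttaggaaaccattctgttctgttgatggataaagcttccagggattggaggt
A match describes the letters and shows neither a site nor a cause. Over all 161 members' windows the NF-kB share was 1.86%, also from 3 windows. With so few matches and several motifs searched, an excess was not tested. The other motifs were no more frequent in the windows of members lower by both routes than in all windows. The AP-1 letters TGANTCA were in 7.14% against 7.81%, the HNF1 half-site GTTAAT, part of the longer HNF1 motif, in 5.36% against 7.1%, and the interferon-stimulated response element in 1.79% against 3.44%. The full HNF1 motif, HNF4A (CAAAGTCCA) and C/EBP-ATF (TGATGCAAT) were in 0 of the 56, and in 0.399%, 0.475% and 0.192% of all windows.

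Carriers of sodium, chloride, bicarbonate and protons moved both ways. Of 15 tested (23 named) 6 were lower and 4 higher by ip (40% and 26.7%, against 25.1% and 36.3% of all genes). By iv 5 were lower and 2 higher (33.3% and 13.3%, against 19% and 30.7% of all genes). Slc12a1, the cotransporter NKCC2 of the thick ascending limb and the target of loop diuretics, had 11.91, 12.66 and 13.08 at ip 400 mg/kg, against 13.54, 13.72 and 14.03 in ip saline. By iv Slc12a1 had 10.98, 12.05 and 12.57 at iv 400 mg/kg, against 12.89, 13.06 and 13.34 in iv saline. Every treated kidney lay below every saline kidney, with changes of -1.19 ± 0.20 and -1.23 ± 0.20. Slc12a3, the thiazide-sensitive cotransporter NCC of the distal convoluted tubule, had 9.77, 10.31 and 11.02 at ip 400 mg/kg, against 11.73, 12.04 and 12.16 in ip saline. By iv Slc12a3 had 9.64, 10.16 and 11.23 at iv 400 mg/kg, against 11.35, 11.67 and 11.80 in iv saline. It fell without overlap, with changes of -1.67 ± 0.18 (adjusted p = 7e-11) and -1.39 ± 0.18 (adjusted p = 1.5e-08).

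Other genes of the Slc12 family rose. Slc12a4, the potassium-chloride cotransporter KCC1 that cells use to lose volume, had 6.60, 6.86 and 7.09 at ip 400 mg/kg, against 5.14, 5.18 and 5.91 in ip saline. By iv Slc12a4 had 5.85, 6.33 and 6.65 at iv 400 mg/kg, against 4.88, 5.19 and 5.34 in iv saline. It was higher without overlap by both routes (1.47 ± 0.16 and 1.13 ± 0.16). Slc12a2, the cotransporter NKCC1 found in most cells, had 7.94, 8.78 and 8.89 at ip 400 mg/kg, against 7.10, 7.61 and 7.88 in ip saline. By iv Slc12a2 had 7.75, 7.94 and 8.66 at iv 400 mg/kg, against 6.61, 7.43 and 7.63 in iv saline, also without overlap, and it changed by 1.10 ± 0.21 (adjusted p = 1.2e-05) and 0.86 ± 0.21 (adjusted p = 0.00058). Slc4a4, which passes bicarbonate from proximal tubule cells to the blood, was lower (-0.97 by ip and -0.52 by iv). The proton exchanger Slc9a8, named after its values were seen, was lower (-1.81 by ip and -1.29 by iv).

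**Figure D2:**
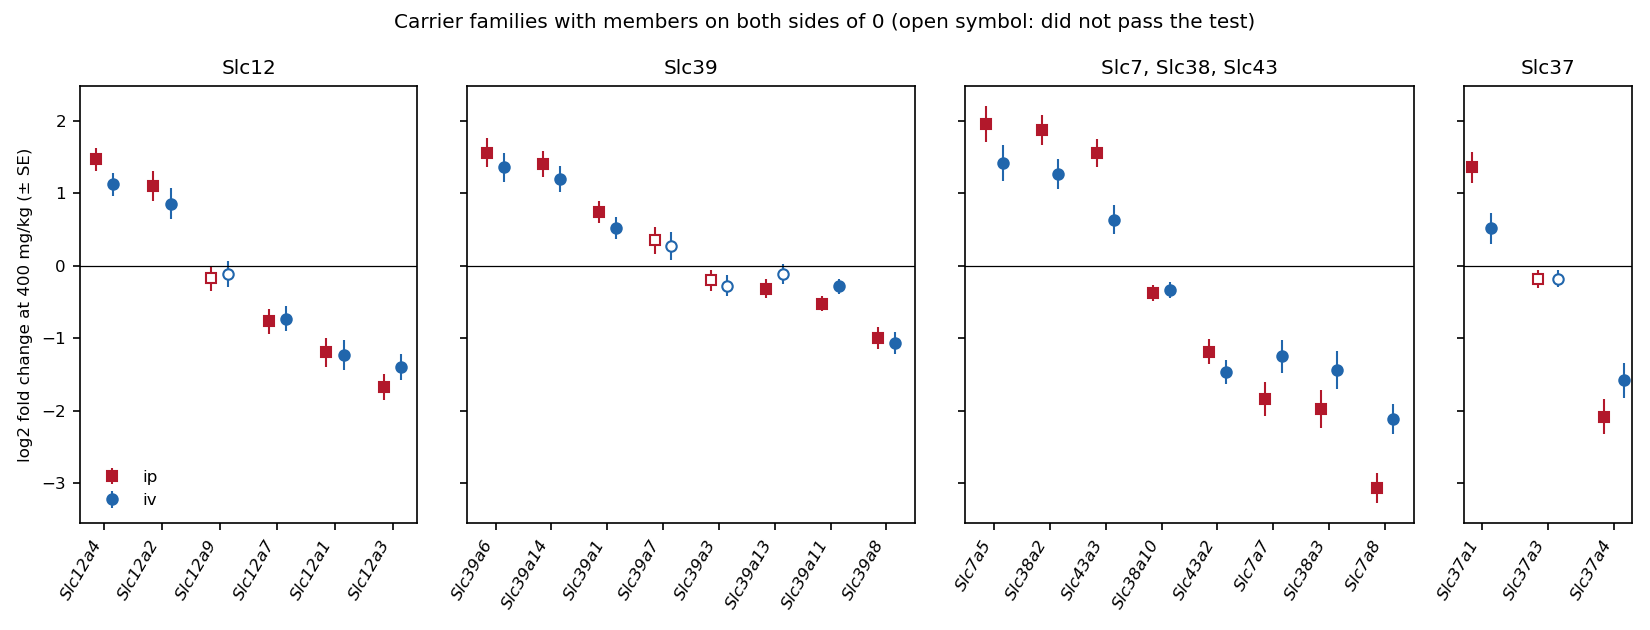
Log2 fold change at 400 mg/kg against saline (points, with SE bars) of each tested member of the Slc12, Slc39 and Slc37 families and of Slc7, Slc38 and Slc43, by ip and iv (n = 6 per group). Each panel holds members on both sides of 0, such as Slc12a4 above and Slc12a3 below.

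Among organic anion and cation carriers the 6 tested members (of 10) were split 3 higher and 3 lower by ip. That was 50% each, against 36.3% and 25.1% of all genes. By iv 2 were higher and 2 lower (33.3% each, against 30.7% and 19% of all genes). Slco3a1, an organic anion carrier found in many tissues, had 8.47, 8.71 and 8.97 at ip 400 mg/kg, against 6.67, 6.90 and 7.09 in ip saline. By iv Slco3a1 had 7.66, 8.41 and 8.72 at iv 400 mg/kg, against 6.35, 6.63 and 6.99 in iv saline. It rose without overlap by both routes (1.83 ± 0.17, adjusted p = 9.3e-13, and 1.72 ± 0.17, adjusted p = 1.7e-11). The prostaglandin carrier Slco2a1 rose too, by 1.14 and 0.97. Slco2b1, known from macrophages among other cells, was higher by ip (1.11 ± 0.26, adjusted p = 0.00032) and did not pass by iv (0.30 ± 0.26, adjusted p = 0.35). Slc47a1, the exporter MATE1 that passes organic cations and drugs into urine, had 11.12, 11.52 and 12.36 at ip 400 mg/kg, against 12.93, 13.03 and 13.11 in ip saline. By iv Slc47a1 had 10.63, 11.40 and 11.91 at iv 400 mg/kg, against 12.34, 12.42 and 12.64 in iv saline. It fell without overlap (-1.36 ± 0.16 and -1.08 ± 0.16). Of the anion carriers of the Slc17 family, Slc17a2 was lower by both routes (-1.66 and -0.78) and Slc17a1 by ip only (-0.34, adjusted p = 0.026).

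The carriers of nucleosides, vitamins, choline and urea had 3 higher and 4 lower of 9 tested (13 named) by ip. That was 33.3% and 44.4%, against 36.3% and 25.1% of all genes. By iv 2 were higher and 2 lower (22.2% each, against 30.7% and 19% of all genes). Slc44a3, of the choline carrier-like family, had 8.18, 8.59 and 8.87 at ip 400 mg/kg, against 6.36, 6.56 and 6.92 in ip saline, without overlap. By iv Slc44a3 had 6.42, 7.58 and 8.28 at iv 400 mg/kg, against 6.22, 6.34 and 6.69 in iv saline, with overlap, and it rose by 1.95 ± 0.19 and 1.12 ± 0.19. The choline carrier Slc44a1 was higher by 1.35 (adjusted p = 4.7e-10) and 0.98 (adjusted p = 1e-06). The vitamin C carrier Slc23a1 had 8.65, 9.53 and 10.20 at ip 400 mg/kg, against 10.96, 11.12 and 11.16 in ip saline, a change of -1.59 ± 0.19, and was lower by iv too (-0.99 ± 0.19). The folate carrier Slc46a1, named after its values were seen, was lower (-1.62 by ip and -1.17 by iv).

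Slc14a2, the urea carrier of the inner medulla that serves the concentrating of urine, was uneven among the control kidneys. The ip saline kidneys had 2.57, 5.12, 6.37, 8.56, 8.70 and 8.92, and the ip 400 mg/kg kidneys had 8.92, 9.66, 9.95, 10.07, 10.60 and 10.63. The lowest treated kidney and the highest control kidney thus met, and 1 control kidney lay at background. The change was 3.27 ± 0.87 (adjusted p = 0.0013), the only rise among the 21 carriers known from kidney tubule, and 2.44 without the lowest control kidney (adjusted p = 0.011). By iv Slc14a2 had 7.09, 8.77 and 9.24 at iv 400 mg/kg, against 6.14, 7.29 and 7.89 in iv saline, and its change of 1.26 ± 0.87 did not pass (adjusted p = 0.24). Single kidneys at ip 50 (2.77) and ip 200 mg/kg (2.32) were at background as well. The share of inner medulla in each kidney piece was not tested.

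Metal ion carriers moved both ways, with class medians of -0.01 by ip and 0.04 by iv. Of 18 tested, 7 were higher and 4 lower by ip (38.9% and 22.2%, against 36.3% and 25.1% of all genes). By iv 6 were higher and 3 lower (33.3% and 16.7%, against 30.7% and 19% of all genes). These class shares were near those of all genes. The zinc importers of the Slc39 family held rises and falls. Slc39a6 had 8.12, 8.55 and 9.02 at ip 400 mg/kg, against 6.51, 7.07 and 7.28 in ip saline. By iv Slc39a6 had 6.96, 7.62 and 8.30 at iv 400 mg/kg, against 5.36, 6.45 and 6.60 in iv saline. It rose without overlap (1.56 ± 0.20 and 1.36 ± 0.20). Slc39a14, an importer of zinc and iron that rises in inflammation of the liver, had 7.85, 8.28 and 9.28 at ip 400 mg/kg, against 6.60, 6.89 and 7.38 in ip saline. By iv Slc39a14 had 7.15, 7.50 and 7.84 at iv 400 mg/kg, against 5.50, 6.45 and 6.73 in iv saline. It too rose without overlap (1.40 ± 0.18, adjusted p = 5.2e-09, and 1.20 ± 0.18, adjusted p = 3.1e-07). Its close relative Slc39a8, named after its values were seen, fell without overlap by both routes (-0.997 by ip and -1.06 by iv).

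Slc40a1, ferroportin, the iron exporter of macrophages and other cells, had 9.64, 9.85 and 10.12 at ip 400 mg/kg, against 9.05, 9.34 and 9.83 in ip saline. By iv Slc40a1 had 9.14, 9.41 and 9.74 at iv 400 mg/kg, against 8.38, 8.71 and 9.07 in iv saline. It was higher by both routes, with overlap by ip and none by iv (0.47 ± 0.15, adjusted p = 0.0047, and 0.68 ± 0.15, adjusted p = 0.00013). The copper carrier Slc31a2 rose by 0.79 and 0.66. Of the 4 named carriers known from macrophages 3 were tested, and Slc15a3 and Slc40a1 rose by both routes and Slco2b1 by ip, beside the myeloid sums given above. Slc2a6 was under the filter.

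Mitochondrial carriers, which link the cytosol to the matrix, mostly fell. Of 20 tested (22 named) 14 were lower and 2 higher by ip (70% and 10%, against 25.1% and 36.3% of all genes). By iv 12 were lower and 3 higher (60% and 15%, against 19% and 30.7% of all genes). The median changes of the class were -0.65 by ip and -0.36 by iv. Slc25a33, a pyrimidine nucleotide carrier, had 6.17, 6.32 and 7.15 at ip 400 mg/kg, against 7.19, 7.61 and 7.94 in ip saline. By iv Slc25a33 had 5.69, 6.10 and 7.45 at iv 400 mg/kg, against 7.42, 8.00 and 8.48 in iv saline. The ip groups stood apart and 1 iv kidney reached the saline range, with changes of -1.14 ± 0.21 and -1.67 ± 0.21. Unlike most members, Slc25a33 was lower in ip saline than in iv saline, by a change of -0.39 that did not pass. The ornithine carrier Slc25a15 of the urea cycle (-1.67 by ip and -1.13 by iv), the coenzyme A carrier Slc25a42 (-1.75 and -1.15), the dicarboxylate carrier Slc25a10 (-1.44 and -1.21) and the oxoglutarate carrier Slc25a11 (-1.15 and -0.58) fell by both routes and are named after their values were seen. The carnitine-acylcarnitine carrier Slc25a20 was the only mitochondrial member higher by both (0.64 and 0.61). A second probe set of Slc25a20 changed less, by 0.21 by ip and 0.40 by iv.

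The remaining classes were small or changed little. Of 11 neurotransmitter carriers 4 were tested. Slc18a1, a carrier that loads amines into vesicles, had 4.40, 5.22 and 6.47 at ip 400 mg/kg, against 7.55, 7.69 and 7.93 in ip saline. By iv Slc18a1 had 4.43, 5.11 and 6.19 at iv 400 mg/kg, against 6.82, 7.19 and 7.31 in iv saline. The serotonin carrier Slc6a4 had 3.12, 3.55 and 5.01 at ip 400 mg/kg, against 5.99, 6.35 and 6.52 in ip saline. Both fell without overlap by both routes, with changes of -2.38 ± 0.24 and -1.86 ± 0.24 for Slc18a1 and of -2.40 ± 0.25 and -1.66 ± 0.25 for Slc6a4. These are the only carriers known from brain and sense organs that passed the filter. Nucleotide sugar and secretory pathway carriers, which feed glycosylation in the Golgi, had 3 lower and 0 higher of 10 tested by ip and 1 lower and 0 higher by iv (limma, adjusted p). At an unadjusted p under 0.05 there were 4 by ip and 2 by iv. The called shares were 30% lower by ip and 10% by iv, against 25.1% and 19% of all genes. Of 2 tested fatty acid carriers 1 was lower by each route.

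**Figure D3:**
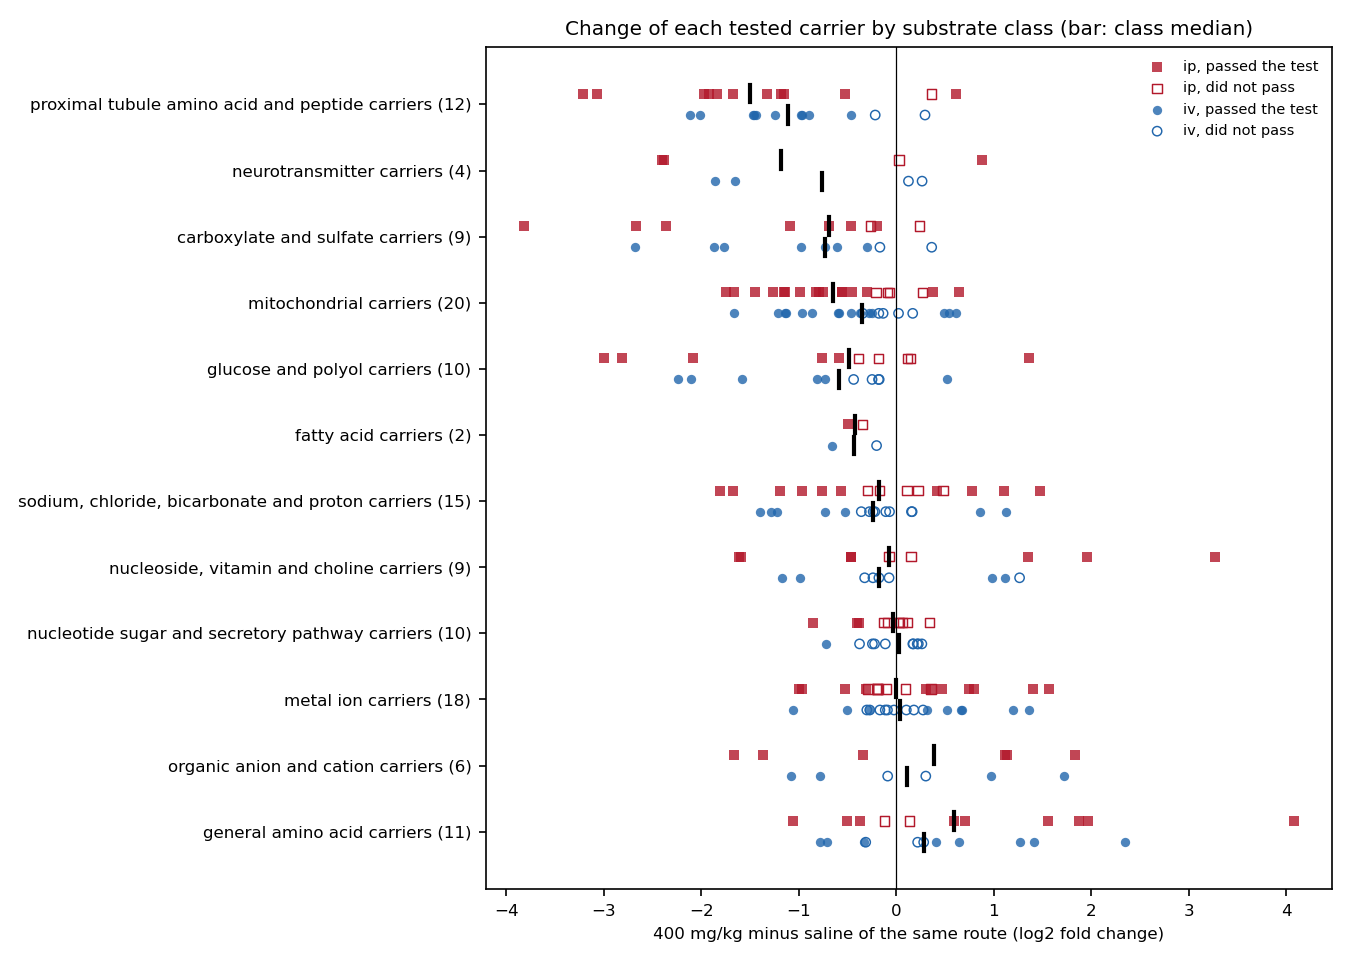
Log2 fold change at 400 mg/kg against the saline group of the same route for each tested carrier, in rows by substrate class with the number tested, filled where adjusted p was under 0.05, and with the class median as a bar. The proximal tubule amino acid class lies mostly left of 0 and the general amino acid class mostly right of it, with Slc15a3 furthest right at 4.07.

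The 38 members under the filter had highest group means between 1.90 and 3.67, so their changes are not told from background. Fitted without the filter, 2 of them were called higher and 20 lower by ip, and 1 higher and 1 lower by iv. Of the tested members 5 had a group mean under 3.47, namely Slc15a3, Slc1a3, Slc37a1, Slc7a5 and Slc8a1, and the first 4 passed only through 400 mg/kg arrays.

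Genes that work with the carriers at the tubule membrane were lower too. Of 25 listed pump, scaffold and partner genes 11 were tested, 11 were lower and 0 higher by ip, and 10 were lower and 0 higher by iv (limma, adjusted p, with the same numbers at an unadjusted p under 0.05). That was 100% lower by ip and 90.9% by iv, against 25.1% and 19% of all genes. Lrp2 and Cubn are also among the tubule markers summed above, so the 2 lists are not separate. The median change of the 11 genes was -1.23 by ip and -0.89 by iv. They include Cltrn, collectrin, which amino acid carriers of the brush border need (-0.85 by ip and -0.89 by iv), Hnf4a, a transcription factor of proximal tubule cells (-1.52 and -1.03), Cubn (-2.41 and -1.70), an endocytic receptor, and Kcnj1, the potassium channel partner of NKCC2 (-1.23 and -1.11). The sodium pump subunit Atp1b1 changed least, at -0.22 by ip (adjusted p = 0.039) and -0.14 by iv (adjusted p = 0.22).

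Transporters and channels outside the solute carriers were mixed. Of 32 listed 17 were tested. By ip 3 were higher and 7 lower (17.6% and 41.2%, against 36.3% and 25.1% of all genes). By iv 1 was higher and 10 lower (5.88% and 58.8%, against 30.7% and 19% of all genes). Abca1, an exporter of cholesterol, rose by 1.86 by ip and 1.37 by iv, and Abcb1b, a P-glycoprotein drug pump, fell by 1.60 and 1.25 on the log2 scale. Bsnd, the barttin subunit of chloride channels, was lower by both routes (-1.47 and -1.52).

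Below 400 mg/kg only iv 200 mg/kg gave calls in the limma fit without array weights. At iv 200 mg/kg 2 members were higher and 6 lower, against 6.07% and 1.29% of all genes (7.36% in all), and 0 of the 8 changed by more than 2-fold. The counts leaned on the setting: weighting arrays by quality gave 10 higher and 26 lower, and fitting only the 2 groups gave 0 higher and 2 lower. Slc7a8 had 7.23, 7.81 and 8.37 at iv 200 mg/kg, against 8.44, 8.59 and 8.86 in iv saline, a change of -0.75 ± 0.20 (adjusted p = 0.016). Every treated kidney was below the saline range, and the call ended in the fit of the 2 groups (adjusted p = 0.055). Slc25a33 had 6.54, 7.02 and 7.47 at iv 200 mg/kg, against 7.42, 8.00 and 8.48 in iv saline (-0.94 ± 0.21, adjusted p = 0.0033), with a small overlap. It already lay between 6.86 and 7.59 at iv 50 mg/kg. That change of -0.72, the lowest of the tested members at that dose, did not pass. How far the iv saline level of Slc25a33 accounts for its iv 200 mg/kg change was not tested.

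Slc38a3 (-0.89 ± 0.26), Slc13a3 (-0.78 ± 0.24), Slc66a1 (-0.43 ± 0.14) and the mitochondrial orphan Slc25a45 (-0.39 ± 0.11) were the other members lower at iv 200 mg/kg. The 2 that rose were Slco3a1 (0.65 ± 0.17, adjusted p = 0.0099) and Slc40a1 (0.58 ± 0.15, adjusted p = 0.0073). Slco3a1 had 6.93, 7.31 and 7.62 at iv 200 mg/kg, against 6.35, 6.63 and 6.99 in iv saline. The groups overlapped slightly in both genes. In the fit of the 2 groups the calls on Slco3a1, Slc40a1, Slc13a3 and Slc66a1 were lost (adjusted p = 0.052, 0.073, 0.086 and 0.13). All 8 were called in the same direction at iv 400 mg/kg, a comparison with the same saline kidneys. Myeloid markers at iv 200 mg/kg summed to between 9.74 and 11.93, against 9.36 to 9.59 in iv saline, and their part in these changes was not tested.

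At iv 50, ip 50 and ip 200 mg/kg limma called 0 of the 126 members. Of all genes 0.539% were called at iv 50 mg/kg (0.0348% higher and 0.505% lower), and 0.087% at both ip 50 and ip 200 mg/kg (0.0522% higher and 0.0348% lower). At an unadjusted p under 0.05 there were 4, 5 and 3 members. Array weights gave 2 lower at iv 50 mg/kg, 1 lower at ip 50 mg/kg and 0 at ip 200 mg/kg. Slc16a4, with the largest fall at ip 400 mg/kg, had a median of 9.77 in ip saline, 10.09 at 50, 10.00 at 200 and 6.05 at 400 mg/kg. Slc7a8 had medians of 9.44 in ip saline, 9.14 at 50, 8.93 at 200 and 6.20 at 400 mg/kg, and its change of -0.31 at ip 200 mg/kg, the lowest of the tested members, did not pass.

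**Figure D4:**
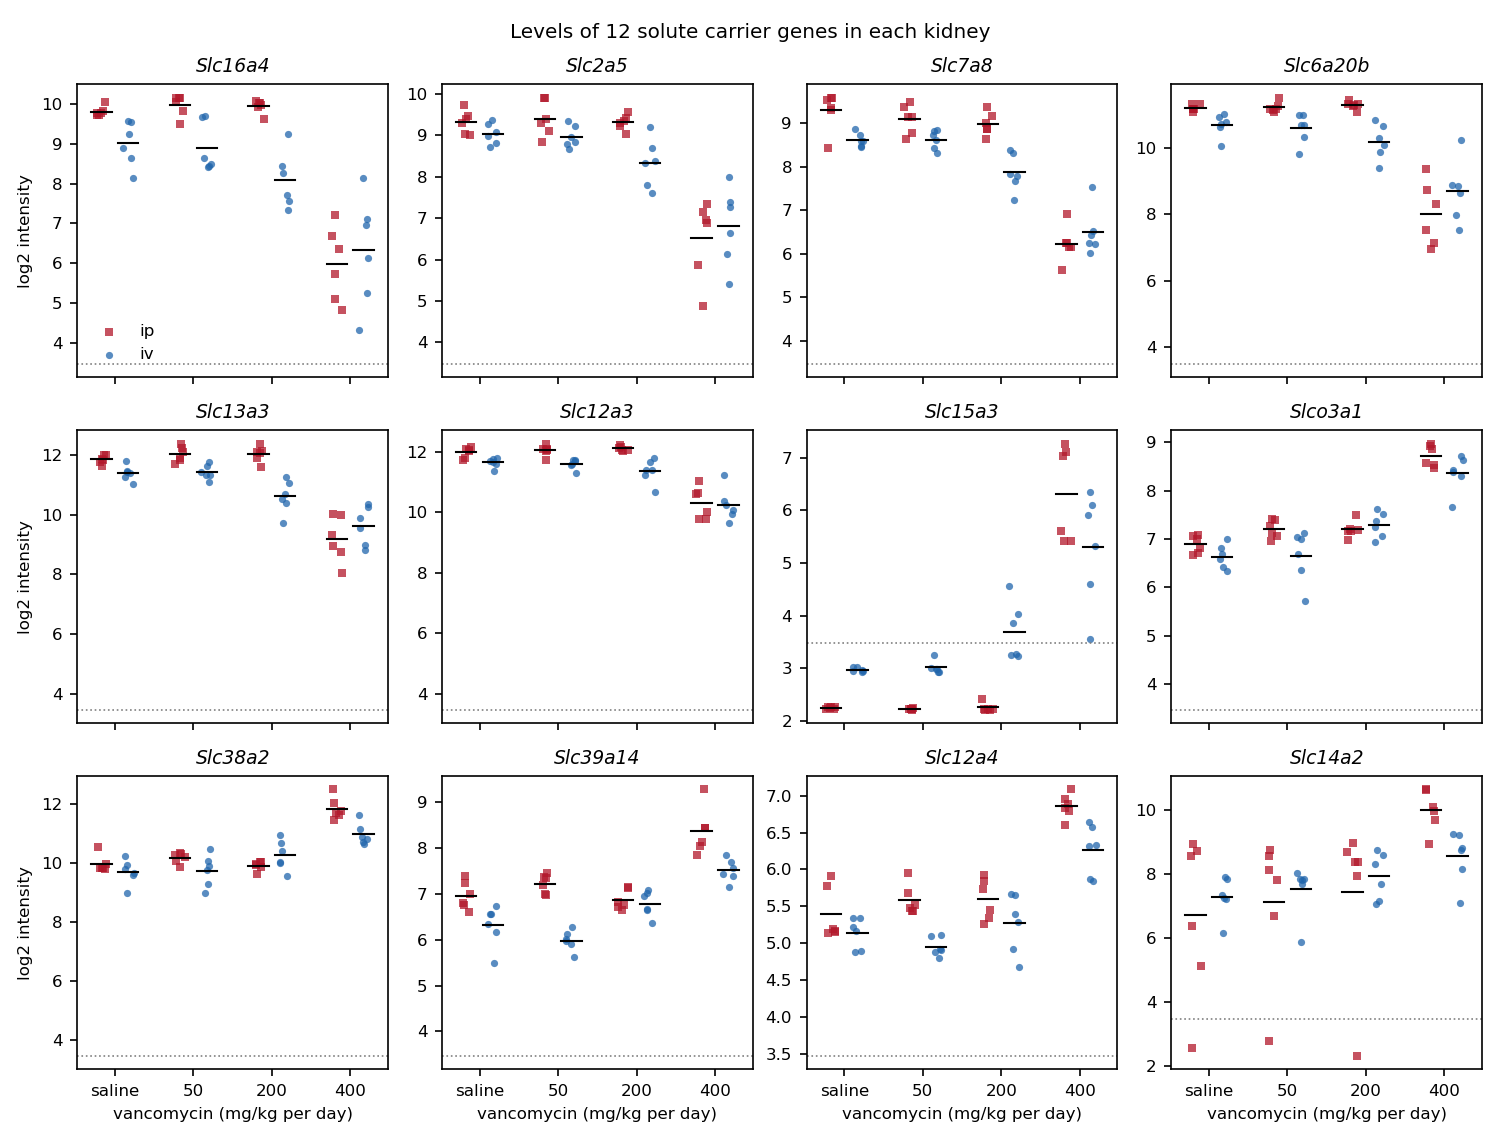
Log2 intensity of 12 carriers in every kidney, by daily dose and route (ip squares, iv circles, 6 kidneys per group, bars at group means, dotted line at the table's median of 3.47). The ip groups up to 200 mg/kg overlap ip saline. The iv 200 mg/kg means of Slc16a4, Slc2a5, Slc7a8 and Slc13a3 lie between those of iv saline and iv 400 mg/kg. In Slc16a4, Slc2a5 and Slc13a3, 1 or more iv 200 mg/kg kidneys lie inside the saline range. In each ip group below 400 mg/kg 1 kidney has Slc14a2 at background.

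The difference between the routes at 400 mg/kg was tested itself, as the ip effect minus the iv effect. Of the 126 members 4 passed (3.17%), 2 with the ip effect above the iv effect and 2 below, against 4.31% of all genes (2.94% above and 1.37% below). For Slc15a3 the difference was 1.73 ± 0.42 (adjusted p = 0.01), and for Slc43a3 it was 0.91 ± 0.27 (adjusted p = 0.044). For Slc7a8 it was -0.95 ± 0.29 (adjusted p = 0.048), with the deeper fall by ip. The Slc15a3 value takes in a difference of -0.73 between its saline means, 2.24 by ip and 2.97 by iv, both under 3.47, so its size and p rest partly on levels that cannot be told from background. The means of Slc15a3 at 400 mg/kg were 6.31 by ip and 5.31 by iv. The calls ended for Slc43a3 and Slc7a8 with arrays centred on their medians (adjusted p = 0.075 and 0.054) and for Slc15a3 with quantile normalization (1.18, adjusted p = 0.11).

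Slc25a37, mitoferrin, which brings iron into mitochondria, moved in opposite directions. Its levels were 7.91, 8.28 and 8.81 at ip 400 mg/kg, against 8.37, 9.07 and 9.45 in ip saline, a change of -0.75 ± 0.20 (adjusted p = 0.0011). By iv Slc25a37 had 7.87, 8.40 and 9.31 at iv 400 mg/kg, against 8.01, 8.10 and 8.11 in iv saline, a change of 0.49 ± 0.20 (adjusted p = 0.038). The groups overlapped by both routes, and the difference of the effects was -1.24 ± 0.28 (adjusted p = 0.0057). The 2 saline groups themselves differed, with means of 9.02 by ip and 8.08 by iv, and the means at 400 mg/kg were 8.27 by ip and 8.56 by iv. At ip 50 mg/kg the Slc25a37 kidneys lay between 8.09 and 8.73, a change of -0.63 that did not pass. At ip 200 mg/kg they lay between 8.86 and 9.33, so the ip levels did not fall in order of dose. By iv the 400 mg/kg kidneys of mice 44 and 45 had 9.30 and 9.31, and the others had 7.87 to 8.42.

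Between the saline groups 65 members were higher by ip than by iv and 1, Slc15a3, was called lower (-0.73), against 55.1% and 2.57% of all genes (57.7% in all). Both saline means of Slc15a3 lay under 3.47, so that call sets 2 background levels against each other. Of the 65, 7 were more than 2-fold higher, led by Slc33a1 (1.45 ± 0.13), Slc17a2 (1.38 ± 0.24), Slc16a11 (1.18 ± 0.08), Slc44a1 (1.14 ± 0.16) and Slc41a3 (1.09 ± 0.17). Slc33a1 had 10.84, 10.99 and 11.26 in ip saline, against 9.34, 9.46 and 10.36 in iv saline, with no overlap. The counts moved with the scaling: 35 higher and 5 lower with centred arrays, and 11 higher and 12 lower with quantile normalization. The share of calls that were higher was 98.5% as deposited, 87.5% and 47.8%, the median of all genes was 0.41, 0.25 and -0.04, and that of the members was 0.37, 0.20 and -0.04, so the direction between the saline groups turned with quantile normalization. Route and the set of arrays cannot be told apart in this comparison.

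Several probe sets of 1 gene gave a check within the members. For 27 tested members with more than 1 kept probe set, 26 of 33 further probe sets changed in the same direction as the one used at ip 400 mg/kg and 29 at iv 400 mg/kg. Of 9 whose gene changed by more than 1 on the log2 scale at ip 400 mg/kg, 9 changed in the same direction. A second probe set of Slco3a1 gave 1.16 by ip and 0.80 by iv, in the same direction as the first, and one of the adenine nucleotide carrier Slc25a5 gave -0.57 beside -0.55 by ip. The iron carrier Slc11a2 disagreed, with -0.97 by ip and -0.50 by iv on the probe set used and -0.04 and 0.03 on the other.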

How the data were processed

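RNA of 48 kidneys, 1 mouse per array, was measured on single-colour Affymetrix arrays. The deposited table holds linear intensity values for 45101 probe sets. GCRMA is the tool that the submitters' processing notes name, with its version and the set of arrays it was run on not given in the sources used here. The values, 1.78 to 63594, were put on the log2 scale as they stood. No 2 arrays were identical.

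Of the probe sets, 34958 had 1 symbol in the platform annotation, 932 had several and 9211 had none, and only the first kind was named. The order of values is shifted against the identifiers, so names were given only in 3 stretches. Data positions 751 to 3250 took the identifier 64 places on, positions 5001 to 11750 had an offset of -47, and positions 34251 to 36000 had one of -16168. Probe sets over 3.47 (log2, the median of the table) in 6 or more arrays were kept, and the kept one with the highest mean stood for each gene. Substrate classes and lists were written by hand from general knowledge. Members and lists were chosen with earlier results of these data known.

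All 8 groups were fitted together with limma 3.58.1 in R 4.3.3 (lmFit and eBayes with a trend, residual degrees of freedom 40, two-sided, Benjamini-Hochberg over 5748 genes), tested on simulated data first. Named were the 12 largest rises and falls at 400 mg/kg by each route with adjusted p under 0.05 and all treated kidneys on 1 side of the saline mean, up to 5 per direction in other comparisons, and tested carriers known from kidney tubule and macrophages. A few others are marked as named after their values were seen. No mouse number is shared between groups, so the mice were taken as independent and unpaired. Residuals of mice next to each other in number correlated at -0.0633 (40 pairs), and those of other pairs of a group at -0.254 (80 pairs), so neighbouring arrays may not be fully independent. Alternatives were median centring, quantile normalization, no filter, a group mean above 6, the mean over a gene's probe sets, all probe sets together, array weights, a fit of the 2 groups and leaving out each mouse of the 400 mg/kg and saline groups. The number of arrays limits the precision. Levels of different probe sets were set against each other only in the name check and in choosing 1 per gene. They were added in the marker sums.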

Additional observations from a re-analysis of the deposited data

Results flagged for a closer look

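In 9 of 120 sets of 6 kidneys (30 named carriers in 4 groups, 7.5%) 1 kidney lay far from the other 5, where chance alone marks about 1 in 20 such sets. Mouse 62 of ip saline was set apart in 3 carriers, with Slc38a2 at 10.54 (the others at 9.81 to 9.95), Slc44a1 at 5.92 (the others at 5.53 to 5.65) and Slc7a8 at 8.44 (the others at 9.30 to 9.58). In each of the 3 it lay on the side of the 400 mg/kg kidneys. Mouse 1 of iv saline, which had the lowest array weight, was low in Slc39a6 at 5.36 (the others at 6.36 to 6.60) and in Slc13a2 at 8.84 (the others at 9.68 to 10.13). Slc16a4 was high in ip saline mouse 63 at 10.03 (the others at 9.71 to 9.82). At ip 400 mg/kg Slc12a2 was low in mouse 107 at 7.94 (the others at 8.59 to 8.89) and Slc25a33 was high in mouse 105 at 7.15 (the others at 6.17 to 6.44). At iv 400 mg/kg Slc7a8 was high in mouse 45 at 7.53 (the others at 6.03 to 6.53).

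The 400 mg/kg effect differed between the routes, ip minus iv and by the test of that difference, in 4 carriers. The differences were 1.73 for Slc15a3, 0.91 for Slc43a3, -0.95 for Slc7a8 and -1.24 for Slc25a37 on the log2 scale. Both saline means of Slc15a3 lay under the background level of 3.47 and differ between routes (2.24 by ip, 2.97 by iv), so its value rests partly on background. Route and the set of arrays cannot be told apart here either.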

How the results depend on the processing

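Followed through the alternatives were 65 called changes of named carriers, 24 of them in each fit without 1 mouse. Not every alternative kept all 65. No followed change reversed where it was kept, and the other called carriers were not followed singly. Between the saline groups the members' median turned (0.37 as deposited, -0.04 with quantile normalization). At 400 mg/kg against saline no count of calls moved by more than 1.5 times. Leaving out 1 mouse at a time gave 23 to 29 higher and 58 to 63 lower at ip 400 mg/kg, and 18 to 21 higher and 50 to 60 lower at iv 400 mg/kg. Without the filter the ip 400 mg/kg counts were 30 higher and 82 lower. At iv 200 mg/kg (2 higher, 6 lower), array weights gave 10 higher and 26 lower, the mean over a gene's probe sets gave 4 higher, and the fit of the 2 groups gave 0 higher and 2 lower. Array weights gave 2 lower at iv 50 mg/kg and 1 lower at ip 50 mg/kg. For the difference between routes (2 higher, 2 lower), median centring and the stricter filter each gave 1 higher and 1 lower, quantile normalization gave 1 higher, and array weights gave 6 higher and 7 lower. For ip saline against iv saline (65 higher, 1 lower), median centring gave 35 higher and 5 lower, quantile normalization 11 higher and 12 lower, no filter 7 lower, array weights 5 lower, and both the mean over probe sets and all probe sets together 2 lower. The share of calls between the routes that were higher was 50% as deposited and 33.3% with quantile normalization. The followed calls on single carriers that ended were at iv 200 mg/kg, in the difference between routes and, for Slc15a3 under quantile normalization, between the saline groups. The cause was not tested. No paired analysis was possible because no mouse number is shared between groups. Signal over background limits the carriers with a group mean under 3.47.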
